A study of Mus musculus with 12 samples.

Results

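The comparison of H3K9me3 with H3K27me3 in mouse embryonic fibroblasts (MEFs) lacking SmcHD1 covered the X-linked genes that had a value in both libraries of these cells, 754 of the 952 genes listed. No measured value was used to choose them. The MEFs came from female fetuses at stage E13.5, from C57BL6/J crossed with JF1 x C57BL6/J F1 animals, with the genotype Smchd1 MD1/MD1, Xist deltaA/+ (MD1 below). They were set beside MEFs of the same sex, stage and strain with the genotype Smchd1 +/+, Xist deltaA/+ (WT below). The deletion on 1 Xist allele was thus carried by both groups, and both were cells in culture, not tissue. Epiblast stem cells (EpiSCs) from stage E6.5, MD1/MD1 with the same Xist alleles, served for a brief look at the end. There was 1 library per mark in each kind of cell, so no difference below has a replicate check and no test across samples was possible.

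H3K9me3 and H3K27me3 are methyl marks on histone H3 that are found on repressed chromatin. H3K27me3 is written by the Polycomb complex PRC2 and covers the inactive X once Xist RNA has spread over it. H3K9me3 is written by enzymes of the SUV39 and SETDB families and is read by HP1 proteins. It is best known from pericentromeric heterochromatin, repeats and zinc finger gene clusters. SmcHD1 is a chromosomal protein related to the SMC family that is enriched on the inactive X and is needed for the lasting silence of many X-linked genes. MD1 is a loss-of-function allele of its gene. The question put to these data was how the 2 marks are divided among the genes of the X when SmcHD1 is missing.

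Values were log2 enrichments as deposited, taken here as the ratio of ChIP to matched input, multiplied by an unknown constant for the library. Both marks of the MD1 MEFs share their input, which cancels in the difference between them. The smallest whole numbers that give each value had a median of 29 for the H3K9me3 ChIP, 293 for the H3K27me3 ChIP and 129.5 for the input per gene. They summed to 98736, 1186942 and 327173. H3K9me3 was the thinner library by these numbers: 134 genes had a pair under 5 there, against 16 in H3K27me3. Intervals given with a difference are 95% counting intervals from these pairs and cover neither culture nor library preparation. The 198 genes without a value were short, with a median length of 1960 bases against 17383, so short genes are under-represented. Smchd1 lies on an autosome and the values hold no expression, so the labelled genotype and cell type were not checked. Which of the 2 X chromosomes the reads come from is not given for these values.

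The promoters below show the kinds of start site at the 2 ends of the comparison, and each is 250 bases long, ending at the base before the annotated start. Nono and Nkap had low values of both marks, and Ldoc1 had high values of both. On the deposited scale Zbtb33 had more H3K9me3 than H3K27me3, and Foxr2 and Ccdc160 had much more H3K27me3. All the genes shown are the first in rank of each kind for which RefSeq lists 1 promoter. Sequences are from RefSeq on build GRCm38.p6, given on the gene's strand from 5′ to 3′, with each CpG (the letters CG, the same on both strands) in capitals. The windows lie on the plus strand at chrX:101429401-101429650 (Nono), chrX:37126513-37126762 (Nkap), chrX:38189543-38189792 (Zbtb33), chrX:61709361-61709610 (Ldoc1), chrX:153118538-153118787 (Foxr2) and chrX:52790950-52791199 (Ccdc160). The ChIP values were deposited per gene, not for these windows.
Nono: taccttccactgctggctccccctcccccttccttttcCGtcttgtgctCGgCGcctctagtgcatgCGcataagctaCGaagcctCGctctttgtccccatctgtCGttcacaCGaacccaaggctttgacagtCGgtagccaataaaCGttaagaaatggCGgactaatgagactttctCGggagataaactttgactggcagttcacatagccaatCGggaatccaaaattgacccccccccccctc
Nkap: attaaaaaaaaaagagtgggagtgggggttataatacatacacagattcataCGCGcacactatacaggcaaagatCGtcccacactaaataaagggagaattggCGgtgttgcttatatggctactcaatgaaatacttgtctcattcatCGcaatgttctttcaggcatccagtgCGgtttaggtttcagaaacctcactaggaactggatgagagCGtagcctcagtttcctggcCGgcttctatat
Zbtb33: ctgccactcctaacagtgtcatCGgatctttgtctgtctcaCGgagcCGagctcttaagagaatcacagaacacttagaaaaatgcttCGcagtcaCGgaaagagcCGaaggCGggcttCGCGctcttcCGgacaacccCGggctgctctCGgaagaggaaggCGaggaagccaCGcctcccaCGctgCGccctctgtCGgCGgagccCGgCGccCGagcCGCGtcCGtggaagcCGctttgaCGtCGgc
Ldoc1: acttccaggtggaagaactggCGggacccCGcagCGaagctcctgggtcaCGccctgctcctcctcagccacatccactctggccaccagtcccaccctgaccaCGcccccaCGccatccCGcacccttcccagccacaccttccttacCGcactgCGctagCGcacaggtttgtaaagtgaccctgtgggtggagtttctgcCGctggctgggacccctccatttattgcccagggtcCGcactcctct
Foxr2: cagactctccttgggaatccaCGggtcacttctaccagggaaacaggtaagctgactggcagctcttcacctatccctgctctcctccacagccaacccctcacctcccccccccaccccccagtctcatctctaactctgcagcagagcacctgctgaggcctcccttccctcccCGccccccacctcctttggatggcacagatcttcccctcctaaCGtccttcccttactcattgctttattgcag
Ccdc160: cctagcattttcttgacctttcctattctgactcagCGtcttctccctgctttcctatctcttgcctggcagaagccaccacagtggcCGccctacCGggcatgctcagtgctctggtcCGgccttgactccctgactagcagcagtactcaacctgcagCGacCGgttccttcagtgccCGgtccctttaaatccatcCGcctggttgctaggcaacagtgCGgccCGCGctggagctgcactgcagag
The 6 windows held 13 (Nono), 8 (Nkap), 27 (Zbtb33), 12 (Ldoc1), 3 (Foxr2) and 11 (Ccdc160) CpGs. At least 1 CpG was present in 92.1% of all promoters of that length in the table, with a median of 6, and the median over the matched X-linked genes was 8.

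H3K27me3 was the higher mark at most genes of the MD1 X on the deposited scale. Its median was 2.38 (interquartile range 1.82, 754 genes), while that of H3K9me3 was -1.26 (interquartile range 1.31). The median difference, H3K27me3 minus H3K9me3, was 3.27, a 9.67-fold ratio. At least 2-fold more H3K27me3 was found at 639 genes (84.7%), and at 618 of them the counting interval also lay above 0. At least 2-fold more H3K9me3 was found at 24 genes (3.18%), of which 18 had an interval below 0. Each difference includes the unknown ratio of the 2 library constants, so its sign as deposited does not say which mark is more abundant. The level of 0 has the same limit: 538 genes lay at or above 0 in H3K27me3 and below it in H3K9me3, 82 were at or above 0 in both, 132 were below 0 in both, and 2 had the reverse order.

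The shape of the distributions does not depend on those constants. H3K27me3 was bunched near its top, with 443 genes between 2 and 3.5, and trailed far down, with 53 genes under -2. H3K9me3 was spread about its middle, from -5.85 to 2.67. When genes were ordered by H3K27me3 and cut into deciles, H3K9me3 was lowest where H3K27me3 was lowest. Its medians were -2.20, -2.04 and -1.33 in the lowest 3 deciles and lay between -1.23 and -0.99 in the other 7. The genes poorest in H3K27me3 were thus poor in H3K9me3 too, and above that range H3K9me3 changed little with H3K27me3. Across the 754 genes Pearson's r of the marks was 0.37 and Spearman's rho 0.27. Both come from values divided by the same input, and neighbouring genes are alike, so they describe these libraries only. In WT MEFs the same measures were negative, -0.45 and -0.52 over 747 genes.

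**Figure D1:**
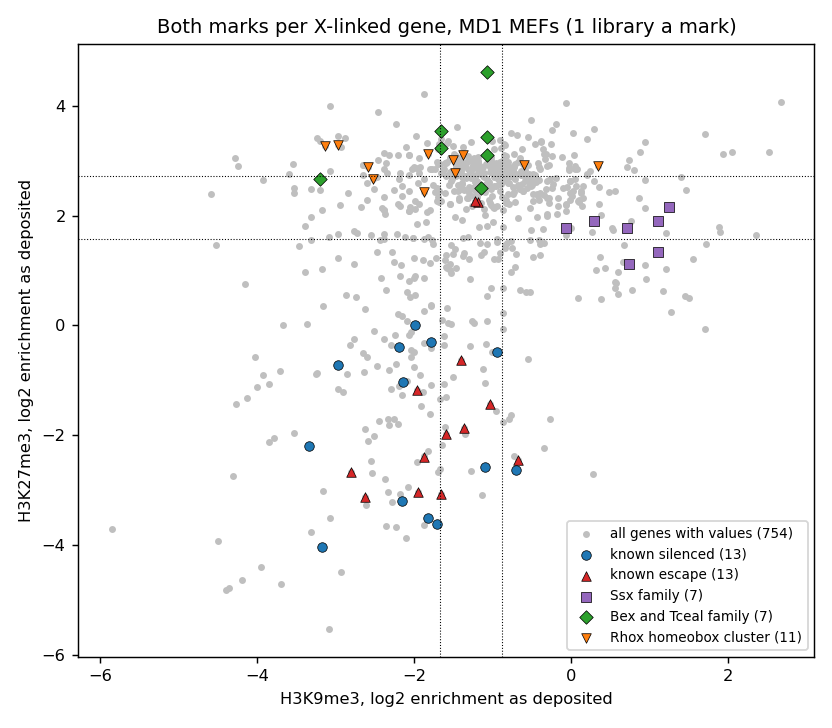
H3K9me3 (horizontal) and H3K27me3 (vertical) log2 enrichment as deposited, 1 point per X-linked gene in MD1 MEFs, 1 library a mark; dotted lines mark the tertiles of each mark and coloured symbols 5 gene lists. Known silenced and known escape genes lie mostly at the bottom left, Ssx genes at the right, and Rhox, Bex and Tceal genes along the top.

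Genes were cut into tertiles of each mark, which needs no common scale. The lower tertile of H3K9me3 ended at -1.67 and the upper began at -0.88, and for H3K27me3 these limits were 1.58 and 2.71. The fullest corner was low in both marks, with 139 genes (18.4%), and 86 (11.4%) were high in both. The opposed corners held 55 genes (7.29%) high in H3K9me3 and low in H3K27me3, and 49 low in H3K9me3 and high in H3K27me3.

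The corner low in both marks in MD1 cells was near the whole X in WT cells. Its medians were -2.33 for H3K9me3 and -0.89 for H3K27me3 in MD1, against -0.11 and 2.19 in WT, where all genes had medians of -0.05 and 2.09. Of the 137 with a WT value, 118 had a WT H3K27me3 value of at least 1, a count close to the 80.9% of all genes with a WT value. In MD1, 98 of the 139 lay below 0 in H3K27me3, against 17.8% of all genes. The corner was cut from the lower tertile of that same mark, so an excess was fixed in advance. The corner high in H3K9me3 and low in H3K27me3 was the one of the 4 whose WT medians lay away from those of the whole X. Its medians were -0.34 and 0.79 in MD1, and 1.13 and 0.10 in WT, where 32 of 54 had H3K9me3 of at least 1, against 20.3% of all genes. The corner low in H3K9me3 and high in H3K27me3 had medians of -2.24 and 3.02, and of -0.22 and 2.39 in WT. It held short genes (median 5080 bases), and 32 of its 49 had an H3K9me3 pair under 5. The corner high in both had medians of -0.48 and 2.95, and of 0.01 and 2.14 in WT, with 6 of 86 pairs that small.

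The genes at the extremes were taken from the 618 with a pair of at least 5 in both marks. Of the 10 with the largest excess of H3K27me3, the 9 described here lay between -2.60 and -1.68 in H3K9me3 and between 2.59 and 3.33 in H3K27me3. Arhgap36, a gene for a suppressor of protein kinase A in Hedgehog signalling, led them. It was at -2.11 in H3K9me3 and 3.25 in H3K27me3, a difference of 5.36 (interval 4.83 to 5.89). Foxr2, a forkhead transcription factor gene whose promoter is printed above, was at -2.20 and 3.11, a difference of 5.31 (4.41 to 6.22). Gabre encodes a GABA-A receptor subunit and was at -2.34 and 2.77. Irs4, an insulin receptor substrate gene, was at -1.68 and 3.31. Ccdc160, Fate1, Mpp1, Lonrf3 and Dmrtc1b had differences of 4.96 to 5.19. In WT MEFs all 9 also had more H3K27me3 than H3K9me3 on the deposited scale, at 2.19 to 3.24 against -0.73 to 0.29. Most genes did so in WT, where H3K9me3 was the higher value at 151 of 747 genes (20.2%).

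At the other end were the 10 genes with the lowest difference, where H3K9me3 was the higher mark as deposited. For each, the counting interval of the difference lay below 0. Most are widely expressed genes with basic cellular functions. Ercc6l, which encodes a DNA translocase of mitosis, had the largest excess. It was at 0.28 in H3K9me3 and -2.70 in H3K27me3, a difference of -2.98 (interval -3.66 to -2.29). As deposited that is a 7.89-fold ratio of H3K9me3 to H3K27me3, which includes the unknown ratio of the library constants. In WT Ercc6l was at 0.92 and 2.11. Pin4, a peptidyl-prolyl isomerase gene that lies close by, was at -0.34 and -2.24. Zfx, an X-linked zinc finger transcription factor gene, was at -0.71 and -2.64, a difference of -1.93 (-2.37 to -1.50), and in WT at -1.44 and 2.96. Ogt encodes the enzyme that adds O-GlcNAc to proteins and was at -1.71 and -3.62, against -0.64 and 2.50 in WT. Huwe1, a ubiquitin ligase gene, was at -1.82 and -3.51, with H3K27me3 at 2.74 in WT. Flna, the gene of the actin crosslinker filamin A, was at -2.94 and -4.49, against 0.10 and 2.18. The genes were picked by the difference itself, and by tertile 6 of the 10 were high in H3K9me3, 1 was in the middle and 3 were low. H3K27me3 lay under -2 at 9 of 10.

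Zfp182 and Kdm6a stood apart among those 10. Zfp182, a KRAB-type zinc finger gene, had the highest H3K9me3 of them, 1.70, with H3K27me3 at -0.06. It had nearly the same values in WT, 1.97 and -0.15. Kdm6a encodes a demethylase of H3K27 and is known to escape X inactivation. It was at -0.68 and -2.45 in MD1, and it was already poor in both in WT, at -0.88 and -1.76. Zbtb33 (the methyl-CpG binding protein Kaiso) and Xiap (an inhibitor of apoptosis) completed the 10, at -1.14 and -3.09 and at -0.73 and -2.37. Of the 754 genes 101 overlap another listed gene, and reads of overlapping genes cannot be separated. Among the genes named in this report these include Zbtb33, Nkap, Mpp1, Tex13a, Eras, Pcsk1n, Glra4, Timp1 and Mid1.

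The genes ranking lowest in both marks at once were Nono, Nkap, Flna, 1810030O07Rik, Igbp1, Upf3b, Eif2s3x and Itgb1bp2. Nono encodes an RNA-binding protein of paraspeckles and was at -3.95 and -4.40, from a pair of 7 in each mark. Its WT values were -0.81 and 2.51. Igbp1, a regulator of PP2A-type phosphatases, was at -2.91 and -1.21, against -1.83 and 2.64 in WT. Upf3b, a nonsense-mediated decay factor gene, was at -2.97 and -1.16, against 0.02 and 2.23. Eif2s3x, a translation initiation factor gene that escapes X inactivation, was at -2.62 and -3.12, and low in WT too, at -2.38 and -1.24. Of these 8, 7 had a WT H3K27me3 value above 2, the exception being Eif2s3x. The WT median over all 747 genes was 2.09, so a value above 2 was common on the whole X.

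The genes ranking highest in both were Tex13a, Ldoc1, Kir3dl2, H2bfm, Fam47c, Btg1-ps1, Zcchc5 and Dcaf12l1. They were short, with a median length of 2605 bases, and rested on pairs of 6 to 47 in H3K9me3. The input that both marks are divided by was thin as well. Its pair was 3 at Tex13a and H2bfm and 49 at Kir3dl2, against a median of 129.5 over all genes. A low input count raises both values together, and its part in this ranking was not tested. Tex13a, a testis-expressed gene, was at 2.67 in H3K9me3 and 4.08 in H3K27me3. Ldoc1 and Zcchc5 both derive from a retrotransposon gag gene and were at 1.70 and 3.49, and at 1.93 and 3.12. Kir3dl2, a killer cell immunoglobulin-like receptor gene and the longest of the group, was at 0.87 and 3.17 from a pair of 47 in H3K9me3. H2bfm, a histone H2B variant gene, was at 2.52 and 3.15. In WT MEFs H3K27me3 was below its MD1 value at each of the 8, between -0.77 and 2.33. The 8 were picked for high MD1 values, which favours lower values in any other library. The median over all genes was also lower in WT, 2.09 against 2.38.

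To compare lists, each library was centred on its median over the 754 genes. The centred difference, H3K27me3 minus H3K9me3, is above 0 where a gene lies further above the library median, or less far below it, in H3K27me3 than in H3K9me3. By this measure 81 genes (10.7%) leaned at least 2-fold towards H3K27me3 and 276 (36.6%) towards H3K9me3, and the median was -0.37. Centring on the mean moved that split to 229 and 183, since H3K27me3 has the longer lower tail, so the count for a list is read against those over all genes. By rank, 169 genes (22.4%) stood at least 25 percentile points higher in H3K27me3 and 169 (22.4%) in H3K9me3. Just inside the 2-fold limit towards H3K27me3 was Tlr7, a toll-like receptor gene, at a centred difference of 1.01. Just outside the limit towards H3K9me3 was Ammecr1, at -0.99.

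Genes that X inactivation is known to silence, mostly with basic cellular roles, leaned towards H3K9me3 in 13 of 13 cases, against 36.6% of all genes. The median centred difference of the list was -3.19. The lean came with low H3K9me3: the medians as deposited were -1.99 for H3K9me3 and -2.20 for H3K27me3, and 10 of 13 were low in both. G6pdx, the gene of the pentose phosphate enzyme glucose-6-phosphate dehydrogenase, was at -3.17 and -4.03. Hprt, a purine salvage enzyme gene, was at -2.20 and -0.39, and Pgk1, a glycolytic enzyme gene, was at -2.96 and -0.72 with the smallest lean, -1.40. In WT MEFs the list had medians of -0.43 and 2.50. Known escape genes leaned towards H3K9me3 in 11 of 13 cases, with a median of -4.03 and medians as deposited of -1.59 and -1.97. Kdm5c and Ddx3x, escape genes for a histone demethylase and an RNA helicase, were at -1.65 and -3.07 and at -1.95 and -3.04. The exceptions were Mid1, at -1.22 and 2.26, and Car5b, at -1.18 and 2.24. The escape list differed from the silenced list in WT, where its medians were -1.22 and -0.72. In MD1 cells the medians of the 2 lists lay close together in both marks.

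The counts in lists of basic cellular functions are to be read against the 36.6% of all genes that leaned towards H3K9me3. In general transcription and chromatin 20 of 30 genes leaned towards H3K9me3 and none towards H3K27me3, with a median centred difference of -2.54. Examples are Suv39h1, itself a writer of H3K9me3, at -1.66 and -2.61, and Taf1, a subunit of TFIID, at -2.17 and -3.07. Elf4, an ETS transcription factor gene, was its opposite end at -2.05 and 2.16. In ribosome and translation 9 of 13 leaned towards H3K9me3 and 2 towards H3K27me3, with a median of -2.16. Rps4x and Rpl10, both ribosomal protein genes, were at -4.35 and -4.79 and at -4.19 and -4.64, each on a pair of 1 in both marks. In RNA binding and processing the counts were 14 and 1 of 26, in the ubiquitin pathway 13 and 2 of 28, and among mitochondrial genes 11 and 0 of 26, with medians of -1.29, -0.66 and -0.88. Pdk3, a kinase of pyruvate dehydrogenase, had the highest centred difference of the mitochondrial list, 0.97.

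Lists of neural, blood and secreted genes are read against the same 10.7% and 36.6% of all genes. Of 24 genes for neurotransmitter receptors or for G protein-coupled receptors, 7 leaned towards H3K27me3 and 2 towards H3K9me3, with a median of 0.28. Gpr50, a melatonin-related receptor gene, was at -3.07 and 3.99, on an H3K9me3 pair of 1. Glra4, a glycine receptor subunit gene, was at -2.23 and -0.70. Of 38 synaptic and neural adhesion genes, 4 leaned towards H3K27me3 and 9 towards H3K9me3, with a median of -0.12, and the long gene Dmd (dystrophin) was at -0.54 and 2.62. Efnb1, an ephrin ligand gene, was at -3.92 and 2.65, on an H3K9me3 pair of 3. Of 32 blood and immune genes the counts were 1 and 9, and of 23 extracellular matrix and secreted genes 2 and 5, with medians of -0.23 and -0.14. Within that last list Timp1, an inhibitor of matrix metalloproteinases, was at -2.15 and -1.27 on pairs of 2 and 5. Pcsk1n, an inhibitor of a prohormone convertase, was at -4.28 and 3.04 on an H3K9me3 pair of 1.

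Gene families differed in direction, and their counts are read against the same 10.7% (towards H3K27me3) and 36.6% (towards H3K9me3) of all genes. The Ssx genes, cancer-testis genes in a cluster, leaned towards H3K9me3 in 7 of 7 cases with a median of -2.75. They did so through high H3K9me3, with all 7 in its upper tertile. Ssxb10 was at 1.10 and 1.33 and Ssxb6 at -0.07 and 1.78, and in WT the list medians were 1.79 and 0.17. The Rhox homeobox genes, expressed in reproductive tissue, leaned towards H3K27me3 in 5 of 11 cases and towards H3K9me3 in 1, with a median of 0.89. Rhox1 was at -3.13 and 3.27, on an H3K9me3 pair of 4, and Rhox13 was at 0.34 and 2.90. Of 30 listed Rhox genes 11 had a value. The Bex and Tceal genes, small genes of neural and other tissues, leaned towards H3K27me3 in 4 of 7 cases and towards H3K9me3 in none, with a median of 1.23, on a median input pair of 12. Bex1 was at -1.07 and 4.62, the highest H3K27me3 value of the 754 genes. H3K9me3 pairs were small in this list, at 2 for Tceal8, 4 for Wbp5 and under 5 for Tceal5 and Ngfrap1. Among the Zfp genes 6 of 9 leaned towards H3K9me3 and none towards H3K27me3, with Zfp300 at 1.90 and 1.69. The Mage genes had 5 and 0 of 11, and the solute carriers 5 and 1 of 14. The retrotransposon gag-derived genes had 3 and 2 of 8, and the small Xlr, Slx and Samt families 2 and 1 of 5. Of the predicted genes 19 leaned towards H3K9me3 and 5 towards H3K27me3 of 44, and of the Rik clones 29 and 5 of 74. From the Mage genes on, the shares towards H3K9me3 were 35.7% (solute carriers) to 45.5% (Mage), near the 36.6% of all genes. Some copies within the Ssx, Rhox, Xlr and Samt families are near identical, and how reads were shared among such copies is not stated.

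**Figure D2:**
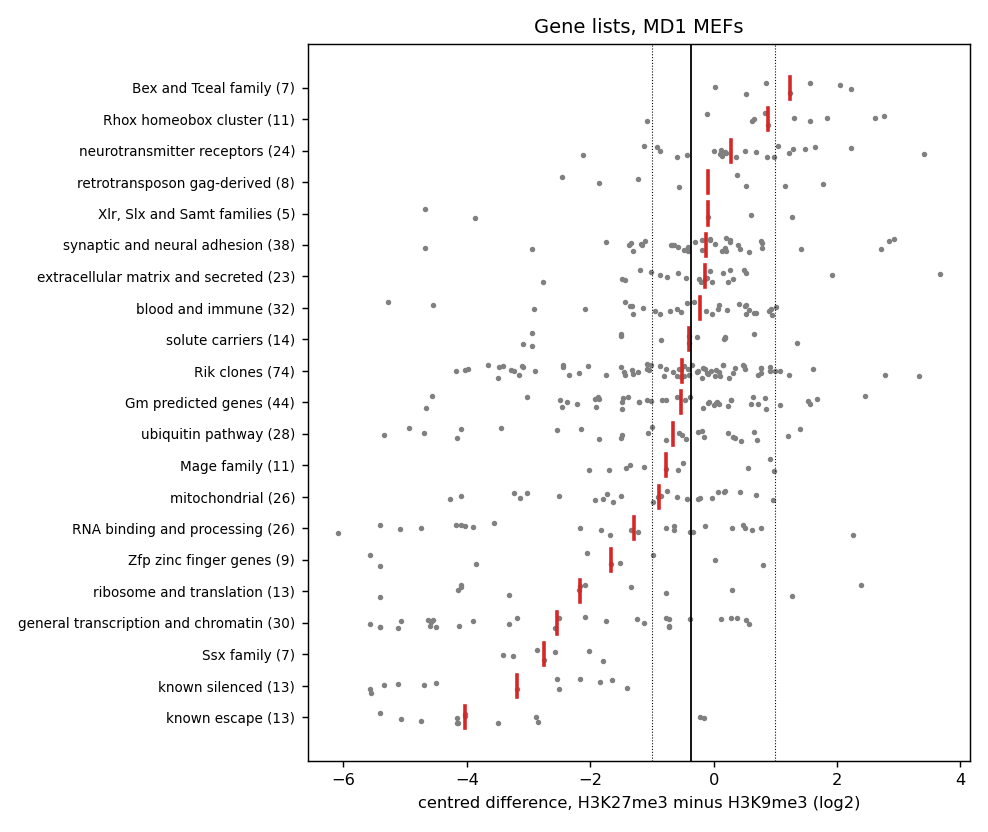
Centred difference, H3K27me3 minus H3K9me3 (log2), of each gene (points, spread vertically for visibility) in 21 lists, with the number of genes with a value; red bars are list medians, the solid line the median of all genes (-0.37) and dotted lines 2-fold. Known escape and known silenced genes lie furthest to the left, and the Bex, Tceal and Rhox families furthest to the right.

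Neighbouring genes along the X had like values. The median absolute difference between a gene and the next was 0.76 for H3K9me3, 0.64 for H3K27me3 and 1.02 for the centred difference, against 1.02, 1.20 and 1.55 over all pairs of genes. H3K27me3 was the mark that varied less between neighbours relative to all pairs, with a ratio of 0.53 against 0.75 for H3K9me3. Among genes within 100 kb the ratios were 0.59 and 0.70, with a median difference of 0.71 in each mark. H3K9me3 was the thinner library, and the part of depth in this contrast was not tested. Runs of consecutive genes with a centred difference on the same side of 0 reached 40 genes towards H3K9me3 and 11 towards H3K27me3. The 300 genes above 0 were 39.8% of all, which bears on how long runs can be.

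The longest run towards H3K9me3 went from Gpr174 to Srpx2 (chrX:104451217-130466985, mm9) and held 40 genes over 26016 kb, a gene-poor stretch. H3K9me3 was high there, in the upper tertile at 31 of 40 genes, while H3K27me3 was in the lower tertile at 26. The medians were -0.05 for H3K9me3 and 1.04 for H3K27me3. In WT they were 1.12 for H3K9me3 and 0.06 for H3K27me3 over 39 genes, against -0.05 and 2.09 for the whole X. Pcdh11x, a protocadherin gene, was at 0.32 and 1.02, and Dach2, a developmental cofactor gene, was at 0.56 and 0.69. Brwd3, a widely expressed bromodomain gene in the same stretch, was at -1.82 and -2.30, the only gene of the run low in both marks.

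The second run, from Tex28 to G6pdx (chrX:71396283-71699117), was of another kind. It packed 18 genes into 303 kb, and 15 of them were low in both marks, with medians of -2.40 for H3K9me3 and -2.87 for H3K27me3. H3K27me3 lay below 0 at 16 of the 18. In WT the same genes had medians of -0.06 and 2.35. The run holds Flna, Rpl10, Emd (the nuclear envelope protein emerin, at -4.39 and -4.83), Atp6ap1 (a subunit of the vacuolar proton pump, at -2.36 and -2.81) and Taz (the cardiolipin enzyme tafazzin, at -2.33 and -1.71). Its edges were sharp in H3K27me3. Tex28 at one end was at 2.23 and the next 2 genes inwards, Tktl1 and Flna, at 0.22 and -4.49. G6pdx at the other end was at -4.03, and the next genes outside, Gm6890 and Gab3, were at 3.11 and 2.94. Pairs in the run were often small, and Emd and Rpl10 had 1 in each mark.

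A pair of runs near the proximal end had higher H3K9me3 in WT than the whole X, and many of their genes were low in both marks in MD1. The 15 genes from Prickle3 to Timm17b (chrX:7234505-7484778) had medians of -2.29 for H3K9me3 and -1.15 for H3K27me3, against 1.97 and 1.10 in WT, and 11 were low in both. Prickle3, a planar cell polarity gene, was at -2.42 and 0.87, against 2.07 and 1.52. Timm17b, of the mitochondrial import machinery, was at -2.31 and -1.81, against 1.56 and 0.19. The 16 genes from Ndufb11 to 4930453H23Rik (chrX:20192452-20798791) had medians of -1.88 and 0.01, against 1.37 and 0.78 in WT, with 9 low in both and 5 in the upper tertile of H3K9me3. Within it Uba1, the main ubiquitin-activating enzyme gene, was at -2.36 and -3.65, against 1.73 and 1.16. In contrast Zfp300 and Zfp182, a few genes further along, were still at 1.90 and 1.70 in H3K9me3. Runs towards H3K27me3 were shorter. The 11 genes from Aff2 to Gpr50 (chrX:66613506-68921264) had medians of -1.31 and 3.09, with H3K27me3 between 2.80 and 3.99 at every gene. The 10 genes from Bhlhb9 to Ngfrap1 (chrX:132420390-132806517), which include Bex and Tceal genes, had medians of -1.46 and 2.99.

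**Figure D3:**
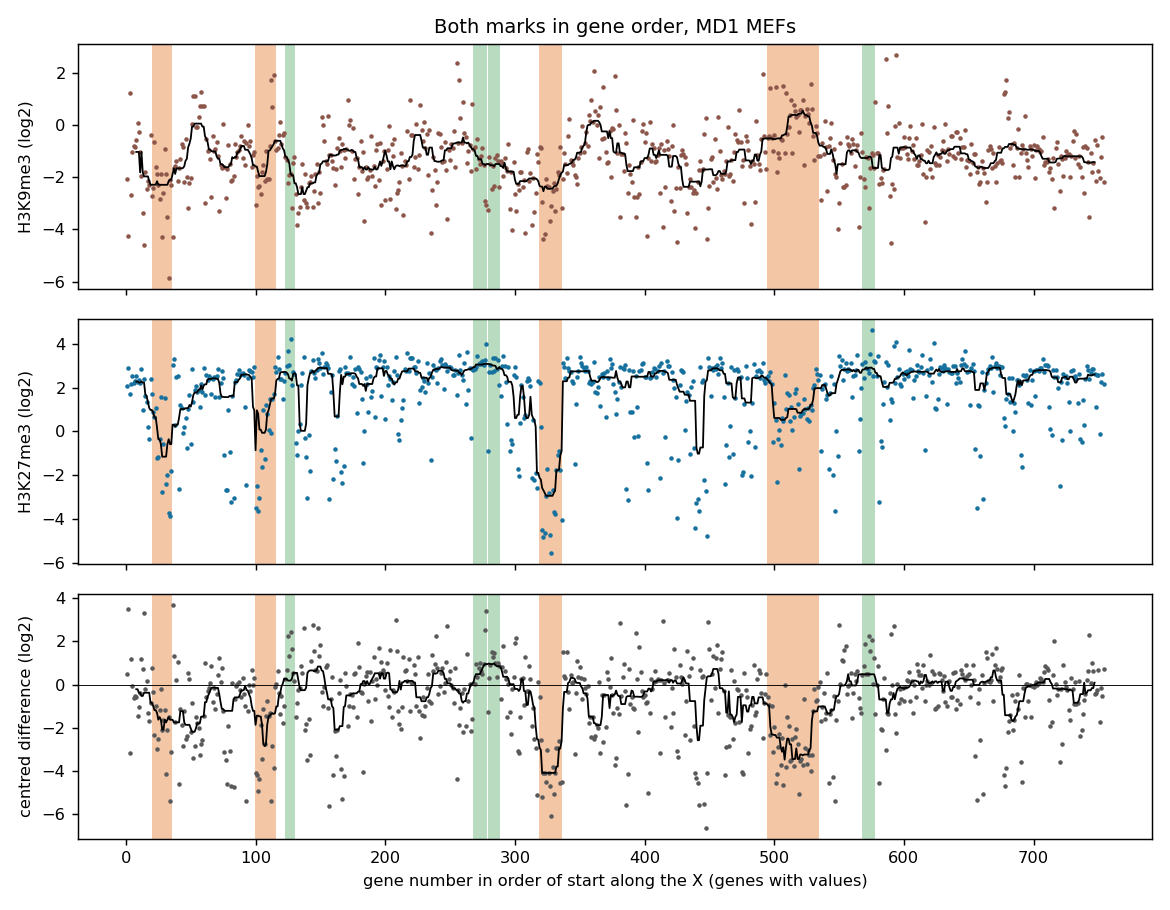
H3K9me3, H3K27me3 (log2 as deposited) and the centred difference (log2) of 754 genes in order of their start along the X, MD1 MEFs; the line is the median of 15 genes, orange bands are the 4 longest runs at or below 0 and green bands the 4 longest above 0. H3K27me3 drops in the second long orange run to a median of -2.87 with H3K9me3 low, while in the widest band H3K9me3 is high.

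For the 739 genes with values in both genotypes, the centred difference was recomputed in each library. In WT MEFs 141 genes (19.1%) leaned towards H3K27me3 and 214 (29.0%) towards H3K9me3, against 78 (10.6%) and 271 (36.7%) in MD1. Of the 214 WT genes leaning to H3K9me3, 139 (65.0%) did so in MD1, and of the 141 leaning to H3K27me3, 23 (16.3%) did so again. These shares are to be read against 36.7% and 10.6% of all 739 genes. The centred difference moved by at least 2-fold towards H3K27me3 at 161 genes (21.8%) and towards H3K9me3 at 209 (28.3%). Taken as deposited these counts were 421 and 85, because the median of H3K9me3 was lower in MD1 (-1.26 against -0.05 in WT) and that of H3K27me3 higher (2.38 against 2.09).

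Zfx, Usp9x, Huwe1, Ogt and Med14 were among the 6 largest moves towards H3K9me3. These 5 had WT values of 2.50 to 2.96 in H3K27me3 and MD1 values of -3.62 to -2.64. H3K9me3 as deposited was at -1.69 to -0.64 in WT and -2.15 to -0.71 in MD1. Usp9x, a deubiquitinase gene, went from -1.69 and 2.96 in WT to -2.15 and -3.20, a move of -7.18 (counting interval -7.95 to -6.40). Med14, a Mediator subunit gene, went from -1.22 and 2.71 to -1.69 and -2.67. Relative to the library medians, H3K27me3 was lower in MD1 by 5.67 to 6.54 at these 5 genes, the larger part of each move. Centred H3K9me3 was higher by 0.13 (Ogt) to 1.93 (Zfx).

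The 6 largest moves towards H3K27me3 were at Porcn, Eras, Ebp, 6330419J24Rik, Was and Gata1. All but 6330419J24Rik lie within chrX:7501402-7783651, just beyond the Prickle3 run. In WT they had H3K9me3 of 1.94 to 3.09 and in MD1 of -3.17 to -0.35. Porcn, which encodes the enzyme that acylates Wnt proteins, went from 2.32 and 0.04 in WT to -2.22 and 1.66, a move of 4.68 (3.67 to 5.69). Gata1, the erythroid transcription factor gene, went from 2.13 and 0.92 to -1.37 and 2.48. Ebp, an enzyme gene of cholesterol synthesis, was at -3.17 and 1.02 in MD1, with H3K27me3 at 0.67 in WT. As deposited, H3K9me3 was lower and H3K27me3 higher in MD1 at these 6 genes.

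**Figure D4:**
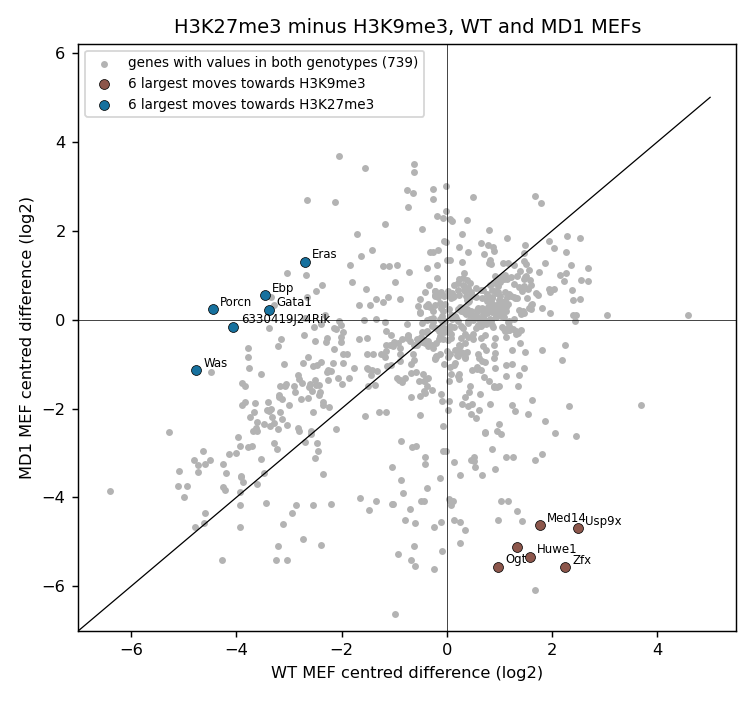
Centred difference, H3K27me3 minus H3K9me3 (log2), in WT (horizontal) and MD1 (vertical) MEFs, 1 point per gene (739), with the line of equality and the 6 largest moves in each direction coloured. The moves towards H3K9me3 lie at the lower right, above 0 in WT and below -4 in MD1, and those towards H3K27me3 at the left.

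Promoter sequence was compared between the tertiles, as a property that neither library entered. A RefSeq promoter was matched for 635 of the 754 genes (84.2%), of which 53 matched through an older symbol. Over 300 bases, from 250 before to 50 after the start, and averaged where a gene has several listed starts (104 genes), the median ratio of observed to expected CpG was 0.49. Genes low in both marks had CpG-rich promoters, with a median of 0.74 (quartiles 0.61 and 0.86, 123 genes) and 74.8% at or above 0.6. Genes low in H3K27me3 and in the middle tertile of H3K9me3 were alike, at 0.77 (51 genes). Those equally low in H3K27me3 but high in H3K9me3 were at 0.44 (quartiles 0.10 and 0.67, 42 genes), and 28.6% reached 0.6. Genes high in both were lowest, at 0.29 (71 genes), with 14.1% at or above 0.6. Over all matched genes 39.7% reached it.

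The printed promoters follow that order in part. Zbtb33 and Nono had ratios of 1.11 and 0.79 over their 250 bases, Nkap 0.70, Ccdc160 0.53, Ldoc1 0.51 and Foxr2 0.18. Ldoc1, high in both marks, had a GC content of 64.0%, above the median of 48.4% for that class over the same 250 bases. Gene length and depth differed among the classes as well. The genes low in both had a median length of 12865 bases and an input pair of 111, those high in H3K9me3 and low in H3K27me3 22616 and 183, and those high in both 15062 and 85.5. The part of base composition, length and depth in the differences between the marks was not tested.

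**Figure D5:**
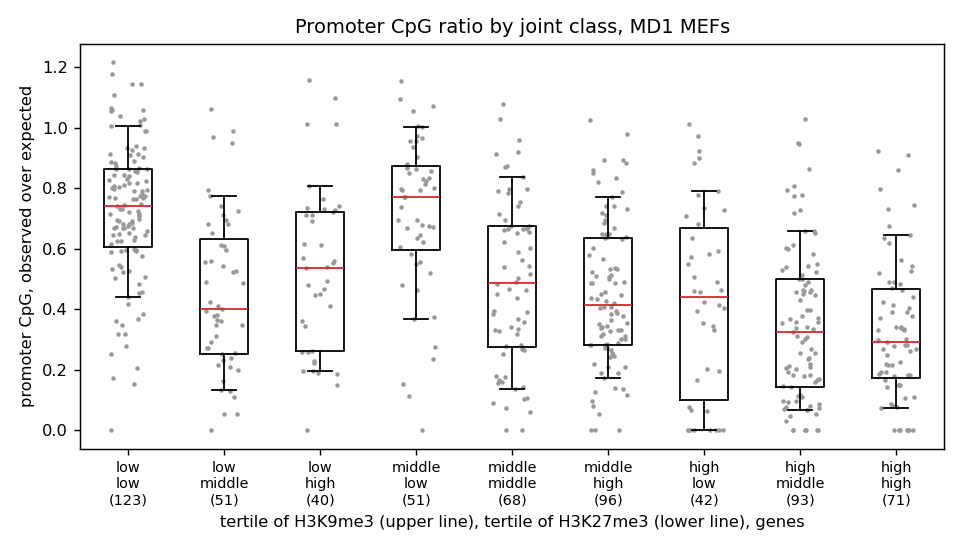
Promoter CpG ratio, observed over expected in 300 bases, for genes in each tertile of H3K9me3 (upper label) and H3K27me3 (lower label) in MD1 MEFs, number of genes in brackets; boxes span the quartiles with the median in red and whiskers the 10th to 90th percentile. The 2 classes low in H3K27me3 and low or middle in H3K9me3 have the highest medians, 0.74 and 0.77.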

How the data were processed

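Chromatin immunoprecipitation followed by sequencing (ChIP-seq) was done with mouse monoclonal antibodies against H3K9me3 (CMA318) and H3K27me3 (CMA323) and NEBNext Ultra II libraries, per the labels' protocols. The series has 12 samples: 8 ChIP libraries and 4 inputs. The genome build was mm9 and the tools cutadapt, BWA and SAMtools, per the submitters' processing notes, where no versions were found. The authors deposited a single log2 value per gene and ChIP library, read here as enrichment over input.

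The members and lists were chosen with earlier results of these data known. For each gene the H3K27me3 minus H3K9me3 difference, the difference after centring each library on its median, and the percentiles were computed with Python 3.11.15, numpy 2.4.6 and pandas 2.3.3. Calls were made at 2-fold or 25 percentile points. Genes were ordered by start. For every value the smallest pair of whole numbers was sought (denominator up to 30000, relative tolerance 1e-12). Pairs fitted 100% of values in both libraries when read as log2, and 1.46% or 3.98% of the H3K9me3 values when read as natural logs or log10. The real counts can be multiples of these pairs. Intervals are normal approximations on the log scale. The steps were tested on simulated data, where the counts were recovered exactly at 87.5% of genes. The simulated shifts between the marks used H3K9me3 counts raised to a floor, so they do not cover genes with small pairs. Gene coordinates are mm9, counted from 1. No library was dropped and no p-value was computed, since each group had 1 library. Values from separate libraries were compared as deposited and centred.

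Named genes with ChIP pairs of at least 5 were the 10 highest and 10 lowest differences, the 8 genes ranking highest and the 8 lowest in both marks, the 6 largest moves from WT each way (pairs of at least 5 in all 4 libraries). Without that minimum, the extremes of each list, the ends of the 4 longest runs each way and genes beside the limits were added. Other genes named as examples of a list, a run or a change from WT were chosen after their values were seen. Alternatives were a pseudocount of 0.1 on the linear scale, other thresholds, centrings and scalings, and filters on value, input, length and overlap. The use of a gene's first listed promoter was added after the data were seen. Some genes that met these rules are not reported here.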

Additional observations from a re-analysis of the deposited data

Results flagged for a closer look

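Between the 2 genotypes, 29 genes leaned at least 2-fold towards H3K27me3 in WT MEFs and at least 2-fold towards H3K9me3 in MD1 MEFs, by the centred difference. The reverse was found at 14 genes. The 29 are 20.6% of the WT genes leaning to H3K27me3, under the 36.7% of all genes that leaned to H3K9me3 in MD1. The 14 are 6.54% of those leaning to H3K9me3 in WT, under the 10.6% of all genes that leaned to H3K27me3 in MD1. Each group is 1 library, so the difference between genotypes was not tested. The 29 include Zfx, Usp9x, Huwe1, Med14, Taf1, Nono, Rps4x and Smc1a. The 14 include Eras, Esx1, Gpr50, Pcsk1n and Usp27x, of which Eras and Pcsk1n overlap each other. Esx1, a placental homeobox gene, was at 2.21 in H3K9me3 and 1.72 in H3K27me3 in WT, and at -2.46 and 3.88 in MD1. Smc1a, a cohesin subunit gene, was at -1.07 and 3.14 in WT, and at -2.19 and -1.11 in MD1. Of the 14, 13 (all but Eras) rest on an H3K9me3 pair under 5 in MD1, and the counting interval of the change crosses 0 at 3 (Usp27x, Tceal5 and Ngfrap1). Of the 29, 6 rest on an H3K9me3 pair that small, and none has an interval that crosses 0.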

How the results depend on the processing

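No paired analysis was possible because each group has 1 library and the labels give no replicate numbers. Counts towards H3K27me3 and H3K9me3 are given in that order. Centring on the mean gave 229 and 183 genes in place of 81 and 276. A 3-fold limit gave 39 genes centred towards H3K27me3 and 12 as deposited towards H3K9me3. Genes of at least 5 kb gave 46 centred towards H3K27me3 and 32 that were low in H3K9me3 and high in H3K27me3. As deposited, the count towards H3K9me3 was 12 with the pseudocount and 9 without the lowest 10% of genes. A limit of 40 percentile points gave 92 and 101. Quartiles in place of tertiles gave 47 genes high in both, 21 high in H3K9me3 and low in H3K27me3, and 27 the reverse. Among genes within 100 kb the median neighbour difference of H3K27me3 was 0.71. Changes from WT taken as deposited numbered 421 and 85. Of 21 lists, 13 had a median under that of all genes, also with the pseudocount and after scaling by the spread (the median absolute deviation). Centring on the mean cannot change that count. No called value (at least 2-fold) of a list or named gene changed sign under these 3 settings. Centring on the mean shifts all values alike by less than that limit, so it could not reverse a called value. Smaller values did change sign under it. The median of the ubiquitin pathway went from -0.66 to 0.08 and that of blood and immune genes from -0.23 to 0.52. Centring on the mean put the median of all genes at 0.37 instead of -0.37. The thin H3K9me3 library limits single genes: 134 had a pair under 5.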

Other observations

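The MD1 EpiSCs, the other cells without SmcHD1, give a second view of the classes defined in MD1 MEFs. Genes low in both marks in the fibroblasts had a median H3K27me3 of 3.64 in the EpiSCs (134 genes), and a median H3K9me3 of -1.63. Over all joint tertile classes the EpiSC medians ran from 2.85 to 4.34 in H3K27me3 and from -1.63 to -0.42 in H3K9me3. The value of 3.64 was thus towards the lower end for that library, and -1.63 was the lowest. Genes high in H3K9me3 and low in H3K27me3 in the fibroblasts were at 2.85 in H3K27me3 and -0.42 in H3K9me3 (51 genes), and those high in both were at 4.29 and -0.90 (81 genes). Among single genes, Nono was at -1.70 in H3K9me3 and 3.03 in H3K27me3, and Flna at -1.96 and 3.74. Kdm6a was at -1.55 and -2.57, Ogt at -1.56 and 0.45, and Pin4 at -0.87 and 0.36. Fam47c, a gene high in both marks in the fibroblasts, was at 3.05 in H3K9me3 and -0.03 in H3K27me3. Levels in the EpiSCs come from other libraries with their own constants and input.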
